A study of Mus musculus with 5 samples.

Results

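A group of 8 genes that the tumor suppressor p53 is known to switch on and that act in cell death was followed through bone marrow (BM) recovering from cyclophosphamide (CTX), a drug that cross-links DNA. They were Bax, Bbc3, Pmaip1, Aen, Fas, Tnfrsf10b, Eda2r and Ei24, 8 of the 31053 genes in the count matrices, and all 8 were found by symbol. They were picked with their rise on day 2 (D2) already known, so the D2 values given here describe them and support nothing by themselves.

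Single-cell RNA was counted in 5 libraries from BALB/c mice that were 4 to 8 weeks old, with no genetic change named. Whole BM came from untreated (naive) mice and from mice on D2 and on day 7 (D7) after 1 intraperitoneal dose of CTX at 150 mg/kg, and in each of these 3 libraries equal numbers of live-enriched cells from 3 mice were mixed. CD11b+Ly6Chi monocytes were sorted from naive and from CTX-treated mice, for which the labels give no day and the study's text gives day 7. Each group was thus 1 library, no test between groups was possible, and the intervals in parentheses are 95% intervals of the counting error of unique molecular identifiers (UMIs), not of the spread between mice.

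After filtering, the naive, D2 and D7 BM libraries held 7104, 6126 and 8290 cells with a median of 3954, 3034 and 7190 UMIs per cell, and the naive and CTX sorted libraries held 1891 and 2564 cells with a median of 10299 and 9694 UMIs. The kept cells held between 22279758 and 67921924 UMIs per library. Levels are UMIs of a gene summed over cells, per 1000000 UMIs (CPM). Since each molecule is counted once at its 3' end, gene length does not enter, but CPM was compared here within a gene and not between genes. Pairs of libraries shared 2 to 16 cell barcodes. A rise is used below for a higher level in the D2 library than in the naive library.

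DNA damage stabilizes p53, which otherwise is held low by Mdm2, and p53 then activates genes of cell cycle arrest, repair and death. In the mitochondrial route the BH3-only proteins PUMA (Bbc3) and NOXA (Pmaip1) bind and neutralize survival proteins of the BCL2 family such as MCL1. This frees BAX to open the outer mitochondrial membrane. In the receptor route, ligands of the TNF family bind the death receptors FAS and TRAIL receptor (Tnfrsf10b) and caspases are recruited, and EDA2R is a receptor of the same family that binds a splice form of ectodysplasin. AEN is a nuclease that cleaves nucleic acid in dying cells, and EI24 is a membrane protein of the endoplasmic reticulum first found as a p53-induced gene. Blood progenitors and B lymphoid precursors are known as cells that die readily through this pathway after DNA damage.

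The p53 protein binds DNA through a degenerate 10-base half-site, normally present as a pair. RefSeq promoter windows of build GRCm38.p6, from 250 bases before to 50 bases after a transcription start, were examined for 6 of the 8 genes. No window was found for Tnfrsf10b. Pmaip1 was left out of this search, so whether its promoter holds a half-site was not tested. An exact match to the consensus half-site, which reads the same on both strands, lay in windows of Bax, Aen and Ei24, or 3 of the 6, while 8.36% of all 32851 windows and 9.55% of the 27025 genes with a window held one. The 3 windows are shown because they are the ones with a match, each 5′ to 3′ on the strand of the gene with the half-site in capitals.
Bax, chr7:45466849-45467148, minus strand, half-site from 201 to 192 bases before the start: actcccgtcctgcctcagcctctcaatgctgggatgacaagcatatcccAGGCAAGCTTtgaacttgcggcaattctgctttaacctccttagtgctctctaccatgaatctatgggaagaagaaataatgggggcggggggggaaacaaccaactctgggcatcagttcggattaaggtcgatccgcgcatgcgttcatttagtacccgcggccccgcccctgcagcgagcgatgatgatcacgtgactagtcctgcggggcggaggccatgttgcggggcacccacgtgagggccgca
Aen, chr7:78895677-78895976, plus strand, half-site at bases 11 to 20 after the start: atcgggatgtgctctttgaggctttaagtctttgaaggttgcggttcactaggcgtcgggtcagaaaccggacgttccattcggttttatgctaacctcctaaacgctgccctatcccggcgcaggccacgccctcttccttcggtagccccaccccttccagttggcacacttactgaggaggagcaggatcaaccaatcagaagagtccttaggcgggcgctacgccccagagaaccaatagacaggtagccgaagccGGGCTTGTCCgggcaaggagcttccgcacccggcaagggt
Ei24, chr9:36797285-36797584, minus strand, half-site from 10 to 1 bases before the start: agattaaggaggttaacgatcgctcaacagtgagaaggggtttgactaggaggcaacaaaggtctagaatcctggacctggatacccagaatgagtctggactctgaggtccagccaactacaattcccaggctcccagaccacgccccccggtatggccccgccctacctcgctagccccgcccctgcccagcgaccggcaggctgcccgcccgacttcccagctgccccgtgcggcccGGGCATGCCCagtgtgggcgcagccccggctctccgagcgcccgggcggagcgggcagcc
A match describes these letters only, and p53 binding was not measured. A second Aen start had the same half-site from 121 to 112 bases before it. The windows of Bbc3, Fas and Eda2r held no exact match within these bases.

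In the GENCODE M21 annotation of mm10, Bbc3 lies at chr7:16308393-16318205 on the plus strand, Fas at chr19:34290666-34327772 on the plus strand, Tnfrsf10b at chr14:69767472-69784411 on the plus strand and Eda2r at chrX:97333840-97377216 on the minus strand. Bax overlaps Gm45808 and Fas overlaps Gm27818 on the same strand, and the effect of the shared stretch on their counts was not tested. Ei24 overlaps Gm26787 on the opposite strand.

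All 8 genes were higher in D2 BM than in naive BM. The mitochondrial genes Bax, Bbc3 and Pmaip1 summed to 92.8 CPM in naive and 273 CPM in D2 BM, the receptors Fas, Tnfrsf10b and Eda2r to 9.29 and 29.2 CPM, and Aen and Ei24 to 37.7 and 92.0 CPM. Summed over all 8 genes the level was 1.5 log2 units higher (1.45 to 1.54) on D2, 2.82-fold, from 13380 UMIs. Over all 6221 genes past a filter on low values the median difference was 0.17, and 5.40% of them were at least 1 log2 unit higher. Bax, Bbc3, Aen and Ei24, 4 of the 8 genes, passed that filter (at least 200 UMIs over the pair and 20 CPM in 1 library) and all 4 were past 1 log2 unit, ranking 87, 16, 89 and 228 among the 6221. Bbc3 and Aen passed it only through their D2 level, so this count supports nothing. In whole BM sums, more cells of a type and more RNA per cell cannot be told apart.

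Bax, the pore-forming effector, was at 82.5 CPM in naive, 225 CPM in D2 and 51.6 CPM in D7 BM. Its D2 level was 1.45 log2 units above naive (1.39 to 1.5). Bbc3 had 6.10 CPM in naive, 30.0 CPM in D2 and 10.5 CPM in D7 BM, a D2 difference of 2.30 (2.11 to 2.49). Pmaip1 was at 4.19, 17.9 and 6.67 CPM, a D2 difference of 2.10 (1.86 to 2.34). Both BH3-only genes thus differed more than Bax, and their intervals met each other but not that of Bax.

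Among the receptors, Fas was at 8.77, 19.4 and 13.8 CPM in naive, D2 and D7 BM, with a D2 difference of 1.15 log2 units (0.97 to 1.33). Tnfrsf10b was scarce, at 0.499, 4.51 and 0.456 CPM, from 23, 153 and 31 UMIs, and its D2 difference was 3.17 (2.54 to 3.87). Eda2r was almost absent outside D2. It had 1 UMI in naive BM, 179 UMIs (5.27 CPM) in D2 BM and 0 in D7 BM, a D2 difference of 7.92 (5.43 to 13.24) that rests on the single naive UMI. Aen was at 14.1, 39.8 and 6.33 CPM, 1.5 (1.36 to 1.63) above naive on D2. Ei24 was at 23.6, 52.2 and 15.4 CPM, 1.14 (1.03 to 1.25) above naive on D2. The plot of levels by library shows D2 as the highest BM library for each gene.

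**Figure D1:**
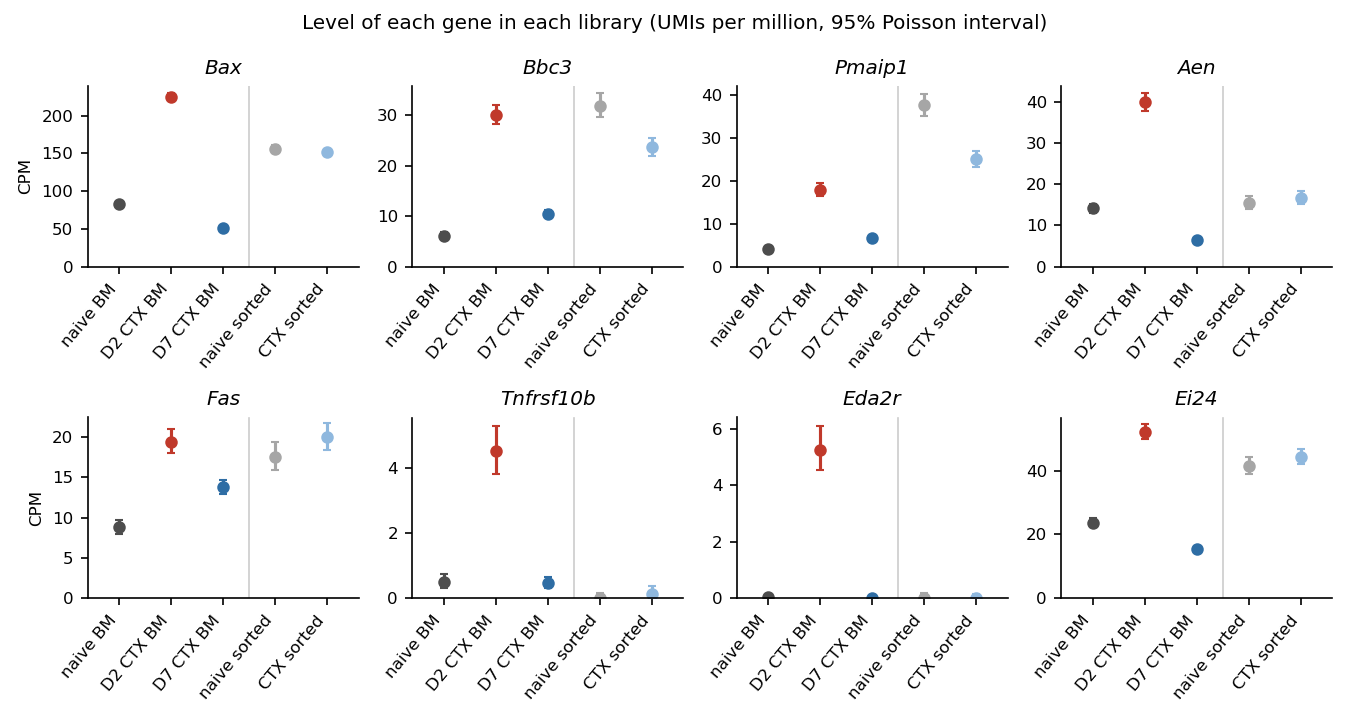
Level of each of the 8 genes in each of the 5 libraries, in CPM on a linear axis from 0 with its own scale per gene (points, 1 library each; bars, 95% Poisson interval of the count). In BM every gene peaks in D2 CTX, Bax at 225 CPM and Eda2r at 5.27 CPM, while the sorted monocyte libraries are close to each other for Bax, Aen, Fas and Ei24 and lower in CTX for Bbc3 and Pmaip1.

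To see which cells carried the rise, cells were gated by marker genes into 13 classes with at least 50 cells in both naive and D2 BM. Of the 10 leading genes of each class, 2 to 7 were its own markers and at most 2 belonged to another class. The cells were assigned by these same markers, so these counts are no independent check of the gates. The summed level was at least 1 log2 unit higher on D2 in 10 of the 13 classes, and the counting interval lay above 0 in 12. In cells under 10000 UMIs 9 classes could be compared, and 3 of them reached 1 log2 unit where 6 of the 9 did with all cells. These are class sums within 1 library per day, and the class makeup itself differed between days. With the class mix of naive BM imposed on both days the sum was 405 CPM in D2 against 139 CPM in naive, so the rise was also seen within classes.

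The neutrophil precursor-like cells had the largest rise. Their sum was 62.4 CPM in naive, 382 CPM in D2 and 62.9 CPM in D7 BM, a D2 difference of 2.61 (2.48 to 2.75), from 1040 naive and 289 D2 cells. In this class 2 of the 8 genes passed the filter and both were past 1 log2 unit, where 3.95% of all genes were. Granulocyte-monocyte progenitor (GMP)-like cells went from 164 to 630 and back to 142 CPM, a D2 difference of 1.94 (1.76 to 2.12). Kit-positive progenitor-like cells went from 166 to 628 and then 221 CPM, a D2 difference of 1.92 (1.72 to 2.13). The leading genes of this class included Dntt and Flt3 in naive and D7 BM but not in D2 BM. Its makeup may thus differ between days, and the part of this was not tested. Among genes past the filter, 3 of 3 were called in GMP-like cells against 14.0% of all genes, and 5 of 5 in Kit-positive cells against 3.70%. In any class a gene can pass the filter through its D2 level alone, as Bbc3 and Pmaip1 did in Kit-positive cells. The counts of called genes by class thus describe the genes and support nothing. GMP-like cells numbered 167 in naive and only 60 in D2 BM, where their median depth was 38082 UMIs against 11150 in naive, and the Kit-positive cells numbered 106 and 146, at 9403 and 24484 UMIs. Among GMP-like cells of at least 10000 UMIs, 53 in D2 and 96 in naive BM, the D2 difference was 1.84 (1.66 to 2.04). Shallower GMP-like cells were not compared. Deep cells of other classes are described apart in later paragraphs.

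Along the neutrophil lineage the rise was smaller in the later stages. Immature neutrophil-like cells were at 66.9 CPM in naive and 98.7 CPM in D2 BM, a difference of 0.56 (0.38 to 0.75), with 0 of 2 genes past the filter called against 2.43% of all genes. Mature neutrophil-like cells were at 143 and 175 CPM, a difference of 0.29 (0.03 to 0.55) that turned negative when libraries were scaled to the median gene (-0.12) or without the top 20 genes (-0.020), with 0 of 3 genes called against 9.54%. The interval of the precursor-like cells met neither of these, while the intervals of immature and mature cells met each other.

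Monocyte-like cells held 256 CPM in naive, 640 CPM in D2 and 263 CPM in D7 BM, a D2 difference of 1.32 (1.22 to 1.43), and 4 of 5 genes past the filter were called against 4.65% of all genes. Plasmacytoid dendritic-like cells went from 198 to 400 CPM, 1.02 (0.77 to 1.27), with 3 of 5 genes called against 3.14%. Macrophage-like cells, from 53 naive and 122 D2 cells, gave 192 and 238 CPM, 0.31 (-0.57 to 1.30), which the depth does not separate from 0. No gene of the 8 passed the filter there, where 7.23% of all genes tested were called.

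In the lymphoid classes the rise lay between 1.09 and 1.33, and their intervals met. B lineage-like cells went from 167 to 358 CPM, 1.10 (1.01 to 1.20), T cell-like cells from 217 to 461 CPM, 1.09 (0.76 to 1.43), and NK-like cells from 218 to 549 CPM, 1.33 (1.03 to 1.63). Of the genes past the filter, 1 of 4 was called in B lineage-like cells against 11.8% of all genes, 4 of 5 in T cell-like cells against 4.11%, and 2 of 2 in NK-like cells against 5.91%. Within the B lineage, pro-B and large pre-B-like cells differed by 0.69 (0.45 to 0.92), small pre-B-like cells by 1.2 (0.997 to 1.41) and immature and mature B-like cells by 0.91 (0.72 to 1.12). Called there were 0 of 3 genes against 12.2% of all genes, 2 of 4 against 5.92%, and 1 of 4 against 2.93%. In erythroid-like cells the sum went from 154 to 511 CPM, 1.73 (1.57 to 1.89), with 3 of 3 genes called against 11.3%, and in basophil and mast-like cells from 219 to 630 CPM, 1.52 (1.16 to 1.89), with 1 of 1 called against 6.63%, but on D2 these classes held only 50 and 56 cells.

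**Figure D2:**
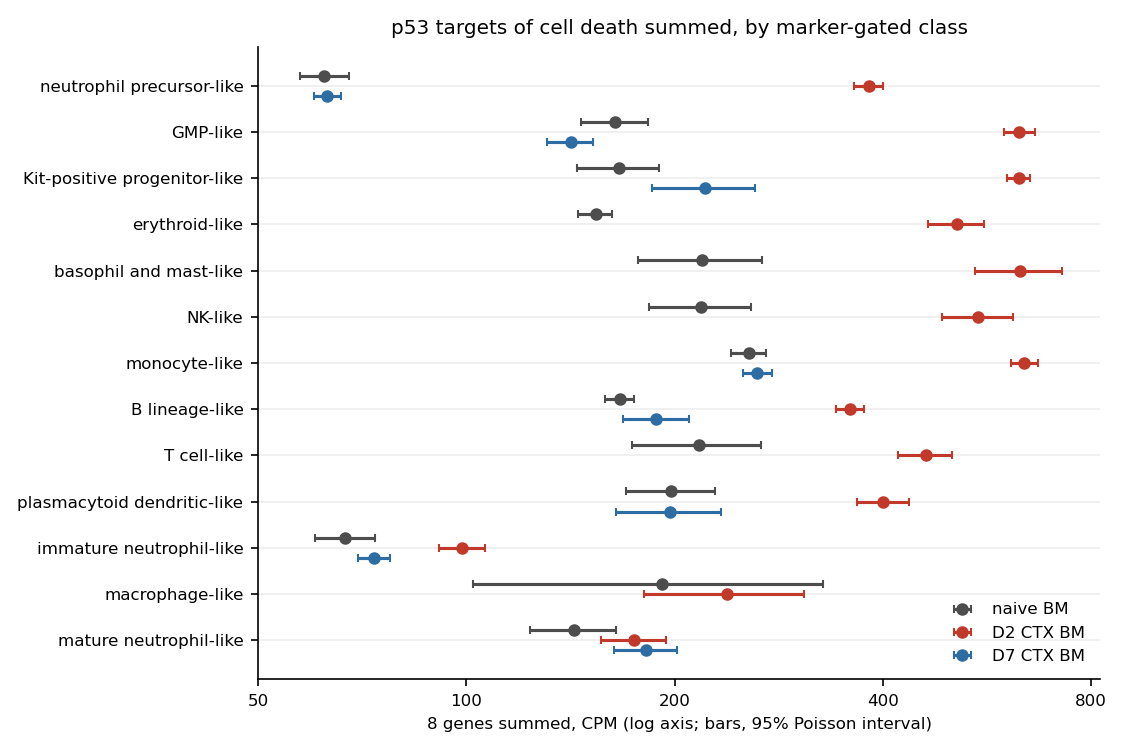
Level of the 8 genes summed (CPM) in each marker-gated class of whole BM, on a log axis, for naive, D2 CTX and D7 CTX (points; bars, 95% Poisson interval). The D2 points of neutrophil precursor-like, GMP-like and Kit-positive progenitor-like cells stand at 382, 630 and 628 CPM, far right of naive and D7, whereas the 3 points of mature neutrophil-like cells lie close together, at 143, 175 and 182 CPM.

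The genes did not all rise in the same classes. Bax, Ei24 and Aen rose broadly: among classes with at least 20 UMIs of the gene over both libraries, the interval lay above 0 in 11 of 13 for Bax, 11 of 12 for Ei24 and 10 of 10 for Aen. Bax differed most in neutrophil precursor-like cells, from 37.2 to 277 CPM (2.90, 2.72 to 3.07), and least, by 0.56, in macrophage-like cells. Aen, the nuclease gene, differed by up to 2.51 over the classes. It went from 15.2 to 57.7 CPM in monocyte-like cells, 1.93 (1.51 to 2.36), and from 20.5 to 105 CPM in erythroid-like cells, 2.36 (1.97 to 2.73). There only 12 of 50 D2 cells had a UMI of Aen, against 84 of 458 in naive BM, and the interval leaves out the spread between cells. Ei24 differed most in neutrophil precursor-like cells, from 13.8 to 56.1 CPM, 2.02 (1.71 to 2.34).

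The 2 BH3-only genes differed in which classes held them. Bbc3 had large rises in several classes. In GMP-like cells it had 2 UMIs in naive and 46 in D2 BM, 4.28 (2.34 to 7.37), and in Kit-positive progenitor-like cells it went from 9.35 to 44.4 CPM, 2.25 (1.41 to 3.23). In B lineage-like cells it went from 2.88 to 43.8 CPM (29 and 209 UMIs), 3.93 (3.36 to 4.54). In immature and mature B-like cells it had 2 UMIs in naive and 103 in D2 BM, 4.75 (2.86 to 7.81), and in small pre-B-like cells it went from 7.48 to 69.7 CPM, 3.22 (2.43 to 4.09). Pmaip1 had a smaller one there, going from 4.27 to 7.96 CPM in B lineage-like cells, 0.90 (0.23 to 1.56). The intervals of Bbc3 and Pmaip1 in the B lineage did not meet. Of the D2 UMIs of Pmaip1, 26.3% lay in monocyte-like and 20.4% in Kit-positive progenitor-like cells, which held 8.94% and 11.8% of all UMIs. It went from 17.0 to 52.7 CPM in monocyte-like cells, 1.63 (1.23 to 2.05), and from 12.0 to 38.9 CPM in plasmacytoid dendritic-like cells, 1.70 (0.75 to 2.79). In Kit-positive progenitor-like cells it had 1 UMI in naive and 124 UMIs (31.0 CPM) in D2 BM, 5.31 (2.81 to 10.63). In mature neutrophil-like cells Pmaip1 was at 29.0 CPM already in naive and at 31.6 CPM in D2 BM, 0.12 (-0.48 to 0.74).

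Fas had another pattern. On D2 immature and mature neutrophil-like cells held 29.0% and 26.1% of its UMIs, and there its level was near that of naive BM. Mature neutrophil-like cells had 82.6 CPM in naive, 87.5 CPM in D2 and 99.2 CPM in D7 BM (111, 172 and 196 UMIs), a D2 difference of 0.08 (-0.27 to 0.44), and immature neutrophil-like cells differed by 0.27 (-0.05 to 0.60). T cell-like cells, another class rich in Fas, had 46.8 CPM in naive and 39.9 CPM in D2 BM, -0.23 (-1.04 to 0.63). The classes where Fas was clearly higher were ones that nearly lacked it before. B lineage-like cells went from 1.39 to 11.9 CPM (14 and 57 UMIs), 3.1 (2.24 to 4.06). Kit-positive progenitor-like cells went from 0 to 51 UMIs, 5.45-fold against a floor of 3 UMIs. Of 7 classes with 20 UMIs or more of Fas, the interval lay above 0 in 2.

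Tnfrsf10b was too sparse for most classes. It had 3 and 18 UMIs in naive and D2 neutrophil precursor-like cells, 3.68 (1.90 to 6.08), and 3 and 39 UMIs in Kit-positive progenitor-like cells, 2.06 (0.41 to 4.40). Both were below 10 CPM on D2.

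**Figure D3:**
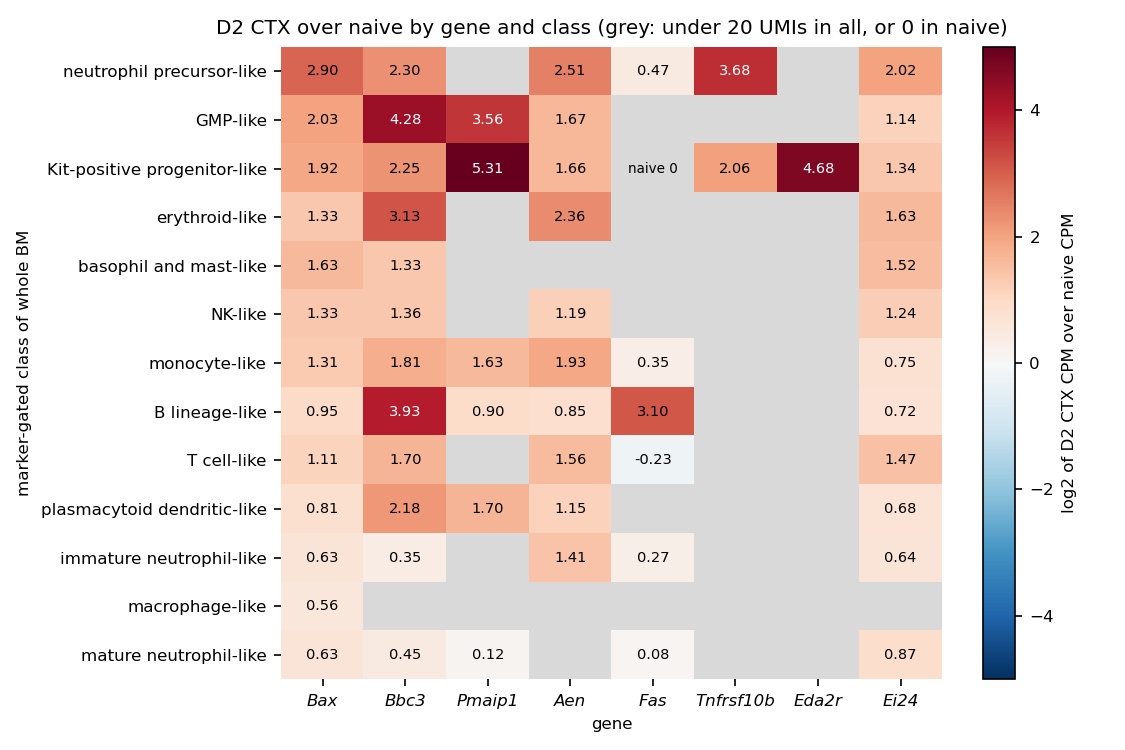
Log2 of the D2 CTX over the naive level for each gene (columns) in each marker-gated class of whole BM (rows), with the value printed in each cell and grey where fewer than 20 UMIs were counted over both libraries or none in naive. Bax, Aen and Ei24 are positive in nearly every class, Bbc3 is at 4.28 in GMP-like and 3.93 in B lineage-like cells, and Fas is near 0 in neutrophil-like cells (0.08 in mature) and 3.1 in B lineage-like cells.

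On D2 the UMIs of Eda2r were concentrated in Kit-positive progenitor-like and megakaryocyte-like cells, although 9 of the 13 classes had at least 1. Its 179 UMIs lay in 106 cells, and Kit-positive progenitor-like cells held 80 of them (44.7%) although they held 11.8% of all UMIs. An Eda2r UMI was found in 47 of the 146 Kit-positive cells (32.2%), against 1 of 106 in naive BM. A further 38 UMIs (21.2%) lay in megakaryocyte-like cells, of which there were only 34 with 2.71% of all UMIs, and which were not compared because naive BM held 20. GMP-like cells had 18 UMIs in D2 and 0 in naive BM, 5.07-fold against a floor of 3 UMIs. On the same floor monocyte-like cells had 11 and 0, 5.26-fold, and erythroid-like cells 10 and 0, 30.4-fold. No Eda2r UMI was seen in T cell-like, NK-like, basophil and mast-like or mature neutrophil-like cells on D2. The count of 0 of 1128 in mature neutrophil-like cells allows up to 0.266% of cells with a UMI (3 cells), but their median depth was 1341 UMIs and the count says little of cells that express the gene. The Kit-positive cells were far deeper, and with every cell thinned to 1000 UMIs only 5 of 5527 cells kept an Eda2r UMI, so shares of cells cannot be compared between classes for this gene.

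At equal depth, more cells of the D2 library had a UMI of the 8 genes. After thinning each cell to 1000 UMIs, 12.5% of naive (853 of 6819), 22.04% of D2 (1218 of 5527) and 10.2% of D7 cells (838 of 8217) had at least 1 UMI of the 8 genes, where the unthinned shares were 42.1%, 46.3% and 47.0%. Shallower cells were left out. UMIs from free RNA were not measured, and their part in these shares was not tested. The thinned share was 23.2%, 44.9% and 24.6% in monocyte-like cells of naive, D2 and D7 BM. It was 13.3%, 41.4% and 25.4% in Kit-positive progenitor-like cells, and 5.39%, 25.7% and 5.53% in neutrophil precursor-like cells. B lineage-like cells were at 15.6%, 28.5% and 19.8%, and mature neutrophil-like cells at 12.4%, 15.1% and 17.0%. Immature neutrophil-like cells, at 6.45%, 7.88% and 7.54%, stayed low in the D2 library. Cells with UMIs of 2 or more of the 8 genes made up 0.616% of naive, 2.95% of D2 and 0.426% of D7 cells, and 12.4% of the Kit-positive progenitor-like cells on D2.

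The D2 rise lay mostly in deep cells. In D2 BM, 662 cells with at least 10000 UMIs were 10.8% of cells and held 49.8% of all UMIs but 70.3% of the UMIs of the 8 genes, while in naive BM such cells held 51.6% of all UMIs and 54.3% of those of the 8 genes. The split at 10000 UMIs was chosen after the data had been seen. In monocyte-like cells the D2 difference was 0.72 (0.51 to 0.92) below this depth and 1.54 (1.39 to 1.69) above it. In plasmacytoid dendritic-like cells it was -0.04 (-0.35 to 0.27) below, from 132 naive and 184 D2 cells, and 2.75 (2.18 to 3.37) above, from 11 and 13 cells. The 13 deep D2 cells had 1244 CPM of Siglech, a defining marker of that class, against 3712 CPM in the shallow ones, and 1141 CPM of the proliferation gene Mki67 against 5.63 CPM. The 11 deep naive cells had 1142 CPM of Siglech and 1568 CPM of Mki67. The rise of this class thus lay in its 13 deep cells and was not seen in the others.

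In other classes the rise held in shallow cells. Neutrophil precursor-like cells differed by 2.24 (1.91 to 2.57) below 10000 UMIs and 2.5 (2.34 to 2.67) above. B lineage-like cells differed by 1.09 (0.98 to 1.21) below and 1.30 (1.001 to 1.595) above, and T cell-like cells by 1.09 (0.76 to 1.44) below. Within the B lineage, pro-B and large pre-B-like cells were an exception, at 0.28 (-0.11 to 0.67) below and 1.13 (0.81 to 1.43) above. Shallow Kit-positive progenitor-like cells gave 0.28 (-0.53 to 1.02) from 15 D2 cells, and shallow basophil and mast-like cells 0.14 (-0.45 to 0.73) from 47, so in these the rise was not detectable at low depth. Most D2 Kit-positive cells were deep, and the 131 deep D2 cells differed from 49 deep naive ones by 2.00 (1.76 to 2.25). Erythroid-like cells differed by 0.79 (0.007 to 1.52) below, from 38 D2 cells, and by 1.83 (1.67 to 1.99) above, from 12. Splitting instead by UMIs of cycling genes, monocyte-like cells without any differed by 0.57 (0.33 to 0.81) and those with one by 1.5 (1.38 to 1.63). Within cells under 10000 UMIs these were 0.63 and 0.75. The part of depth, cell cycle and doublets in the class values was not tested beyond these splits.

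**Figure D4:**
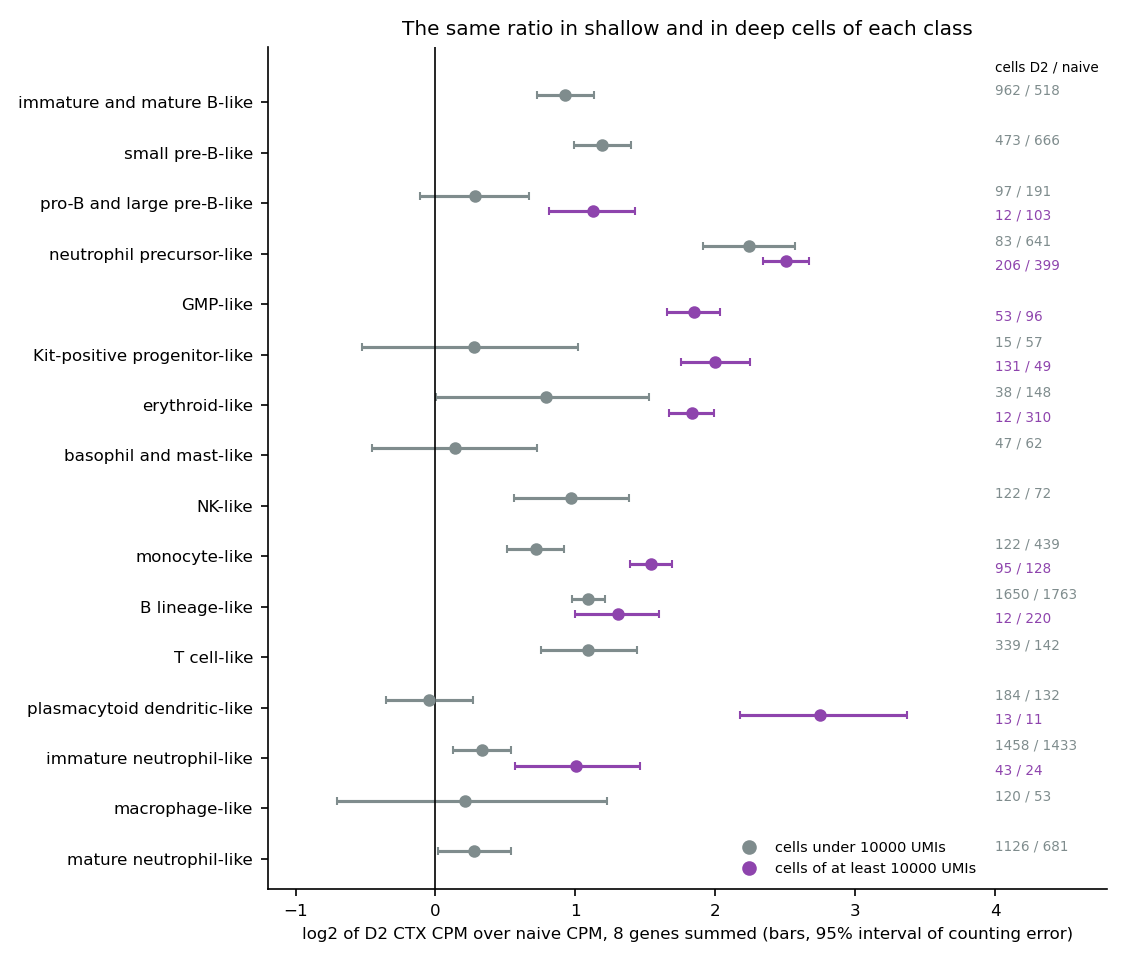
Log2 of the D2 CTX over the naive level of the 8 genes summed in each class, for cells under 10000 UMIs (grey) and at or above (purple), with 95% intervals of counting error; a class lacking enough cells on 1 side has 1 point. The points of neutrophil precursor-like (2.24 and 2.5) and B lineage-like cells (1.09 and 1.30) lie near each other, and those of plasmacytoid dendritic-like cells (-0.04 and 2.75) lie far apart.

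The other genes of the pathway did not all differ alike. Counts of called genes in the lists below stand beside 5.40% of all genes past the filter that were called higher on D2. Trp53, which encodes p53, was at 75.3 CPM in naive and 76.1 CPM in D2 BM, 0.02 (-0.06 to 0.09). Mdm2, its target and inhibitor, was at 48.7 and 95.8 CPM, 0.97 (0.90 to 1.05), and 1 of the 6 regulators past the filter, Mdm4, was past 1 log2 unit. Of 18 targets of growth arrest and repair, 13 passed the filter. Of these, 8 were higher by at least 1 log2 unit, where 5.40% of all genes were, and the list median was 1.20 against 0.17. The 8 were Cdkn1a, Ccng1, Phlda3, Sesn2, Zmat3, Ccnd1, Trp53inp1 and Plk3. Among them Cdkn1a, Phlda3, Sesn2, Zmat3, Ccnd1 and Plk3 passed the filter only through their D2 level. This count and median thus describe the list and support nothing. Cdkn1a, which encodes the cell cycle inhibitor p21, went from 14.8 to 159 CPM, 3.42 (3.31 to 3.54). Phlda3, an inhibitor of AKT, went from 1.56 to 40.0 CPM, 4.68 (4.33 to 5.04).

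Among 10 other p53 targets of cell death, 6 passed the filter, 0 were higher and Steap3, a metalloreductase, was lower, from 21.8 to 8.13 CPM, with a list median of 0.05. Of the 11 genes of the apoptosome and caspases 8 passed and 0 were called in either direction, with a median of -0.04. Of 8 other death genes of the BCL2 family 4 passed and 0 were called, median 0.20, and of 9 partners of the death receptors 3 passed and 0 were called, median 0.50. No caspase gene past the filter was 1 log2 unit apart in whole BM. Where 5.40% of all genes were called higher, a count of 0 in lists this short says little. Apaf1, Casp6 and Bid each stood on more than a single list. The ligands were scarce in whole BM. Fasl, the ligand of FAS, was at 1.02 and 3.15 CPM, and within NK-like cells at 53.4 and 123 CPM, 1.20 (0.58 to 1.85). Tnfsf10, which encodes TRAIL, was at 3.17 and 6.92 CPM, and Eda, whose product binds EDA2R, had 29 and 10 UMIs.

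Of 8 survival genes of the BCL2 family 3 passed the filter and Bcl2 was called, where 5.40% of all genes were. Bcl2 went from 24.9 to 106 CPM, 2.08 (1.99 to 2.18). Mcl1 went from 281 to 476 CPM, 0.76. The 8 survival genes summed were higher on D2 by 1.18 in B lineage-like, 1.29 in T cell-like and 1.0 in NK-like cells, but by 0.17 in neutrophil precursor-like, 0.27 in Kit-positive progenitor-like and 0.13 in monocyte-like cells, with GMP-like cells between at 0.81. It was 1.08 (0.75 to 1.42) in basophil and mast-like, 0.63 in erythroid-like, and 0.41 and 0.36 in immature and mature neutrophil-like cells. Within the B lineage it was 1.33 in pro-B and large pre-B-like, 0.45 in small pre-B-like and 0.43 in immature and mature B-like cells. Immature and mature B-like cells were 522 of 1983 B lineage-like cells in naive and 962 of 1662 in D2 BM, so the value of 1.18 sets different mixes of stages against each other. Bcl2 went from 391 to 1429 CPM in T cell-like and from 254 to 715 CPM in NK-like cells, and Mcl1 from 270 to 715 CPM in B lineage-like cells.

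**Figure D5:**
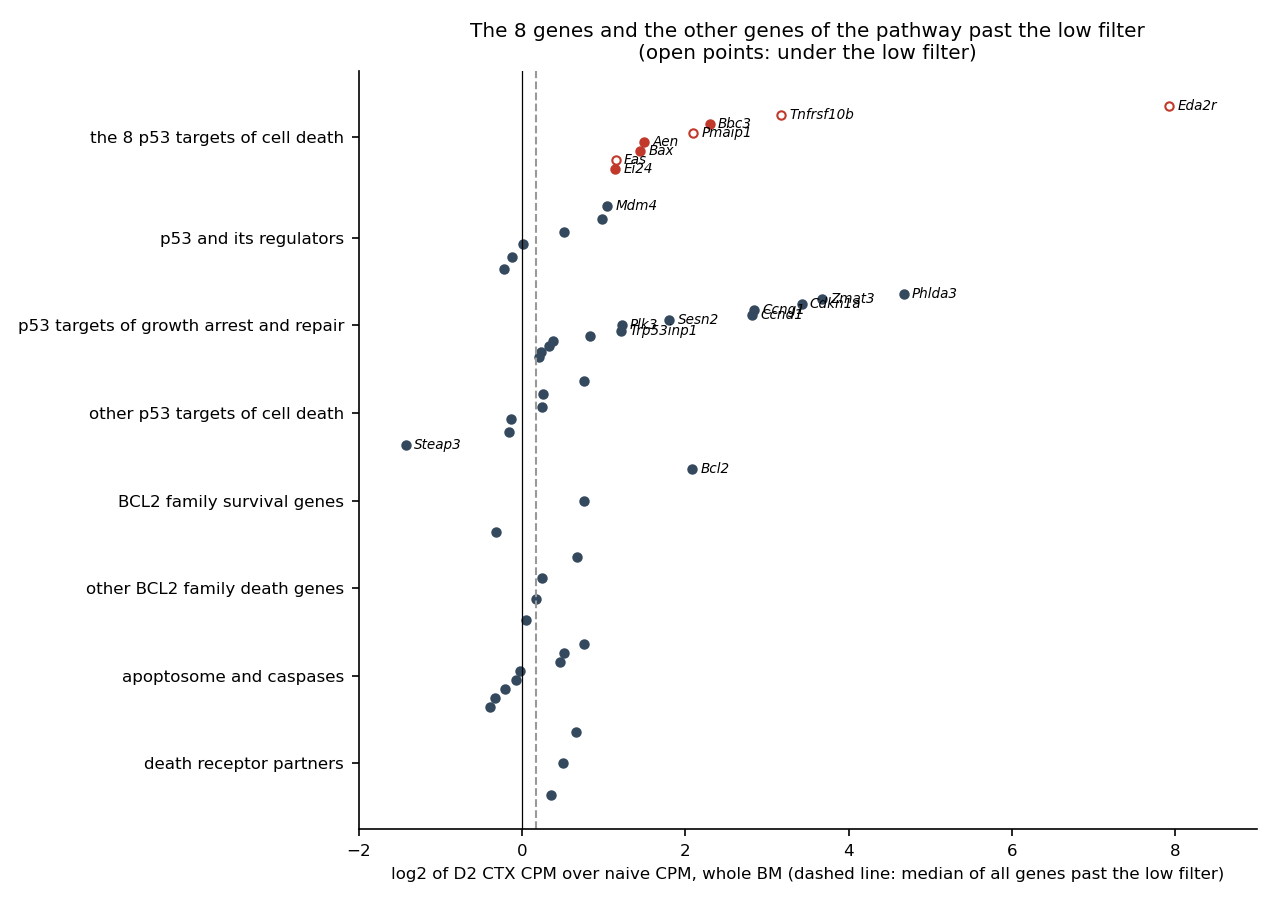
Log2 of the D2 CTX over the naive level in whole BM for the 8 genes and for the other genes of the pathway, by list (1 point per gene; open points did not pass the filter on low values; dashed line, the median of all genes, 0.17). The growth arrest and repair list reaches 4.68 for Phlda3, and the apoptosome and caspase list stays around its median of -0.04.

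By D7 the 8 genes had come down from D2, the sum being 1.91 log2 units lower than on D2, against a median of -0.71 over all genes. All 4 genes past the filter were at least 1 log2 unit lower than on D2, where 34.1% of all genes were. Bbc3, Aen and Ei24 passed it only through their D2 level, for which the genes were chosen, so this count supports nothing. Bax differed from D2 by -2.12, Aen by -2.65, Bbc3 by -1.52 and Pmaip1 by -1.43, while Fas differed by only -0.49 (-0.64 to -0.35). Eda2r, at 0 UMIs, was 119-fold lower than on D2 against a floor of 3 UMIs, and its interval lay below -6.59.

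Against naive BM the D7 picture depended on the gene. The sum was lower by 0.42 (-0.47 to -0.37) at a median of -0.58 over all genes, and its sign turned with the library scaled to the median gene (0.16), without the top 20 genes (0.020), without Bax and Ei24 (0.16) and with the naive class mix (0.11). None of the 2 members past the filter was called, where 1.41% of all genes were at least 1 log2 unit higher and 22.3% lower. Bbc3 was still higher than in naive BM by 0.78 (0.58 to 0.99) and Fas by 0.65 (0.48 to 0.83). Aen differed by -1.16 (-1.34 to -0.98) and Bax by -0.68, and both changed sign with the naive class mix (0.25 and 0.034). Within classes the D7 sums were near naive: monocyte-like cells differed by 0.04 (-0.07 to 0.15) and neutrophil precursor-like cells by 0.01 (-0.12 to 0.15). Kit-positive progenitor-like cells differed by 0.41 (0.09 to 0.73) and GMP-like cells by -0.21 (-0.41 to -0.02).

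In sorted monocytes, 96.6% of naive and 94.1% of CTX cells were monocyte-like, and the 8 genes differed little. Bax was at 155 CPM in naive and 151 CPM in CTX monocytes, -0.04 (-0.10 to 0.03). Aen was at 15.4 and 16.7 CPM, Fas at 17.5 and 20.02 CPM and Ei24 at 41.6 and 44.4 CPM. The BH3-only genes were lower after CTX: Bbc3 went from 31.9 to 23.7 CPM, -0.43 (-0.58 to -0.27), and Pmaip1 from 37.6 to 25.1 CPM, -0.58 (-0.73 to -0.44). Tnfrsf10b had 0 and 4 UMIs and Eda2r none in either library. Of the 8 genes 5 passed the filter and 0 were called, where 0.144% of all genes were at least 1 log2 unit higher and 0.811% lower.

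The genes most like the mean of the 8 included other p53 targets. Over 34 sums of a class in a library and 10638 genes, Pearson's r with the mean log2 level of the 8 was 0.90 for Phlda3, 0.90 for Ccng1, 0.88 for the predicted gene Gm10076, 0.88 for Zmat3 and 0.86 for Tnfsf4. Gm10076 may share reads with a near-identical copy and is uncertain. The 34 sums share libraries and depth, so this is a description. Of the 8 genes themselves Bax had the highest r with that mean, 0.82, and Fas the lowest, 0.16.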

How the data were processed

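UMI counts of 5 single-cell libraries were analysed, 3 of whole BM and 2 of sorted CD11b+Ly6Chi monocytes. The authors deposited raw UMI counts per gene and barcode, made from 10x 3' version 3 libraries with Cell Ranger 3.1 on mm10, without normalization. The 8 genes and all gene lists were chosen with earlier results of these data known.

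Barcodes under 200 detected genes, or with 20% or more of their UMIs mitochondrial, were dropped. Doublets were not called; a gate needing a margin of 0.1 between the best 2 classes was an alternative. Each cell was scored per class as the mean over its markers of log values per 10000 UMIs, scaled to the 99th percentile, and took the best class at a score of at least 0.25 with at least 3 marker UMIs. The markers were listed first and this score was set after the data had been seen. B lineage stages were gated within B lineage-like cells, and classes with fewer than 50 cells were not compared.

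Summed UMIs were expressed as CPM. Intervals (95%) were exact, from the Poisson distribution for levels and conditional on the total for log2 ratios. For counts of called genes, 1 CPM was added and at least 1 log2 unit was asked for, among genes with at least 200 UMIs (50 within a class) and 20 CPM in 1 library. Against 0 UMIs a floor of 3 UMIs was used, and folds from it leave out the error of the other count. Named genes are the 8 members, pathway genes called on D2 in whole BM, and their ligands, regulators and inhibitors. Genes like the 8 were the 5 with the highest r. Intervals cover counting error only. With 1 library per group no test was made. The counting functions recovered known differences in simulated Poisson counts of abundant genes. This does not cover scarce genes or spread beyond counting error. Python 3.11.15, numpy 2.4.6, scipy 1.17.1, pandas 2.3.3 and matplotlib 3.10.9 were used.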

Additional observations from a re-analysis of the deposited data

Results flagged for a closer look

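Pmaip1 moved in opposite directions in 2 sets of monocytes. In sorted CD11b+Ly6Chi monocytes it was lower in CTX than in naive cells, at 25.1 against 37.6 CPM, a log2 ratio of -0.58. In monocyte-like cells of whole BM it was higher on D7 than in naive BM, at 27.3 against 17.0 CPM, a log2 ratio of 0.68 (0.28 to 1.09). The difference between the ratios was not tested, since each group was 1 library. The naive level was the one that differed between the sources, sorted monocyte-like cells holding 1.18 log2 units more Pmaip1 than those of naive whole BM (0.84 to 1.55), while the CTX and D7 cells differed by -0.07 (-0.31 to 0.17). Bbc3 was also higher in naive sorted cells, by 1.27 (0.88 to 1.67), and Bax was not, at -0.04 (-0.16 to 0.08). Sorting was the labelled difference between the sources, and its part was not tested.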

How the results depend on the processing

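The D2 rise of the summed level, 1.5 log2 units, kept its sign under every alternative run. It was 1.33 with libraries scaled to the median gene, 1.03 as the mean of the CPM of single cells, 1.79 without Bax and Ei24, 1.18 without the deepest 5% of cells and 1.06 without Kit-positive, GMP-like and neutrophil precursor-like cells (added after seeing the data). Leaving out 1 gene at a time gave 1.45 to 1.56. The D7 to naive value of -0.42 reversed to 0.020 without the top 20 genes, 0.16 with median scaling, 0.16 without Bax and Ei24 and 0.11 with the naive class mix, was -0.37 without the deepest cells, and lay between -0.53 and -0.11 leaving out 1 gene. The D7 to D2 value of -1.91 was -1.44, -1.2 and -1.63 under the first 3 of these, -1.41 as the mean of cells, -1.54 without the deepest cells and -1.39 with the class mix (-2.04 to -1.67 leaving out 1 gene). The sorted value of -0.09 was -0.26 without Bax and Ei24 (-0.15 to -0.031 leaving out 1 gene).

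The number of classes at least 1 log2 unit higher on D2, 10 of 13, fell to 4 of the 8 classes left with cells of 2000 to 20000 UMIs and 3 of 9 under 10000 UMIs, where 6 and 6 of the same classes were past it with all cells. It was 6 of 8 in cells with a cycling UMI and 2 of 4 for those under 10000 UMIs, where 6 and 2 were past it with all cells. Without a cycling UMI it was 1 of 6, and 1 of 6 under 10000 UMIs, where 4 were past it with all cells in both. The 336 genes called higher became 223 with 5 CPM added, 815 without the filter and 190 with median scaling. Shares of cells with a UMI depend on depth: thinned to 2000 UMIs or not thinned they were 35.3% and 46.3% on D2, 22.4% and 42.1% in naive and 17.6% and 47.0% in D7 BM. Reversed single values were, on D7, Bax with the class mix (0.034), Aen with the class mix (0.25) and Pmaip1 as the mean of cells (-0.41), and on D2 mature neutrophil-like cells without the top 20 genes (-0.020) and with median scaling (-0.12), plasmacytoid dendritic-like cells thinned (-0.20) and under 10000 UMIs (-0.044), and pro-B and large pre-B-like cells without a cycling UMI (-0.039, and -0.039 under 10000 UMIs). Except where cells or genes were left out, the cause was not tested. Of 191 alternatives for single classes 134 stayed within the counting interval, 51 moved and 6 reversed. Macrophage-like cells, whose interval spans 0, turned to -0.039 without Bax and Ei24 and are not among the 6. No paired analysis was possible because each group was 1 library, and the spread between mice is unknown.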

Other observations

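Bcl2l11, which encodes the BH3-only protein BIM, was looked at by class after its values were seen. In whole BM it was at 23.4 CPM in naive and 37.4 CPM in D2 BM, under 1 log2 unit apart. Within classes it was higher on D2 by 1.66 (0.86 to 2.58) in T cell-like, 1.55 (1.05 to 2.08) in NK-like, 1.62 (1.20 to 2.05) in neutrophil precursor-like and 1.24 (0.98 to 1.51) in B lineage-like cells. In mature neutrophil-like cells, where the 8 genes hardly differed, Bcl2l11 went from 18.6 to 43.3 CPM, 1.22 (0.56 to 1.92). Erythroid-like cells went the other way, from 56.7 to 34.2 CPM, -0.73 (-1.31 to -0.19).

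Tnfsf10, which encodes TRAIL, the ligand of the Tnfrsf10b product, was at 22.9 CPM in naive and 103 CPM in D2 pro-B and large pre-B-like cells, 2.17 (1.67 to 2.66), while Tnfrsf10b had 2 and 0 UMIs in the same cells.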
